A study of Gallus gallus with 12 samples.

Results

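Connexins are the proteins of gap junctions, and 7 connexin genes (GJA1, GJA4, GJA5, GJA3, GJB1, GJB6 and GJC1) were followed through the growth of the chick chorioallantoic membrane (CAM), out of 13009 genes that the array annotation names. They were chosen by symbol: every probe set that the annotation gives to one of the 7 names was taken. Symbols alone found 6 genes and 7 probe sets. For GJC1 the annotation holds no probe set under that symbol, but RefSeq lists GJC1 and GJA7 as older symbols of the chicken gene it now calls GJC3, and the probe set of GJC3 was therefore included, which gave 8 probe sets in all. It is called GJC3 below.

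The CAM is the extra-embryonic membrane through which the chick embryo takes up oxygen. It was taken from untreated embryos at 4 developmental days (E5, E7, E10 and E14), and 3 embryos gave 1 membrane each per day, hybridized to 12 Affymetrix chicken arrays. The values are array signals, scaled over each array to a target of 100, and they carry no unit of molecules. The study's E5 samples are the allantoic vesicle, which it also calls CAM, and every sample is whole tissue with vessels, blood, stroma and epithelium.

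Connexin molecules assemble in a ring to form a hemichannel, and hemichannels of neighbouring cells dock into a channel that passes ions and small molecules between the cells. Most cell types use only a few members of the family, and the mix of members sets what the channel lets through. In mouse vessels, GJA4 and GJA5 are the connexins of arterial endothelium, GJA1 is found in smooth muscle and in endothelium at sites of disturbed flow, and the mouse gene Gjc1 is used by smooth muscle. In mammals GJB6 belongs to epidermis and inner ear, GJB1 to liver and myelinating cells, and GJA3 to lens fibres.

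A probe set was tested where its signal was at least 35 in all 3 CAMs of at least 1 stage, which 17726 of 38439 probe sets met. Of the 8 connexin probe sets, 7 met it, for 6 of the 7 genes, and GJA3 did not. Changes are given on the log2 scale with the standard error (SE) that limma estimated, in a fit of all 12 arrays, and p-values were adjusted over all 17726 probe sets. A call required a fold above 2 with an adjusted p below 0.05, and the words "rose" and "fell" are kept for calls. Levels are signals, n = 3 CAMs per stage, and the level of one gene cannot be set against that of another, since probe sets differ in how strongly they bind.

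E7 replicate 3 stood apart, in that the median of all its signals was 48.6, whereas the other arrays had medians of 24.4 to 33.6. The 3′ to 5′ ratio of actin was 2.21 to 3.43 in E14 arrays, against 1.51 to 1.66 in E10 arrays, 1.19, 1.66 and 2.76 in E7 replicates 1, 2 and 3, and 1.26 to 1.50 in E5 arrays. HINTW, a transcript of the female-specific W chromosome, had a signal of 3679.6 to 7633 in 7 arrays, which included all 3 at E10, and of 2.59 to 109.6 in the other 5. These differences lie partly along the stages, and their part in the results below was not tested except where values are given.

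GJA4 rose 4.32-fold at E14 against E5, and GJB6 rose 3.68-fold and 6.22-fold in its 2 probe sets. GJA1 was 1.94-fold higher at E14, below the fold of 2 that a call needed. GJA5 had its highest mean signal at E10 and GJB1 its lowest, with no call in any comparison. GJC3 was 1.95-fold lower at E14, and it met neither the fold of 2 nor the limit on the adjusted p.

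**Figure D1:**
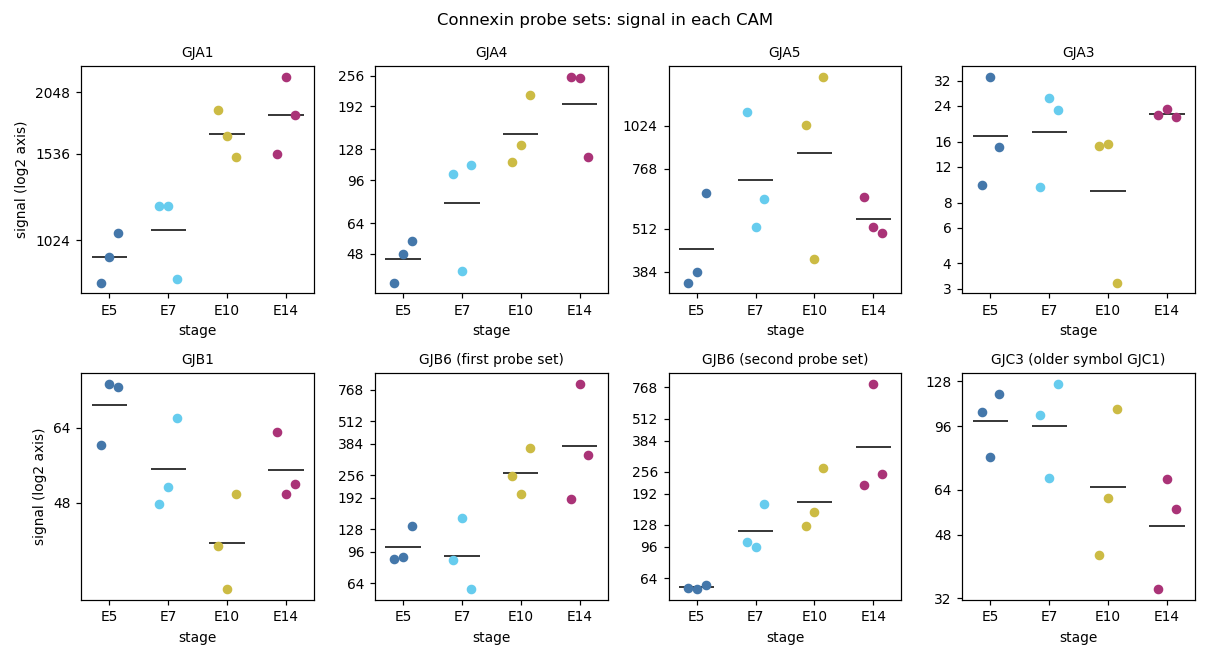
Signal of the 8 connexin probe sets in each of the 12 CAMs (points, 3 per stage, replicates 1 to 3 left to right) on log2 axes of differing range, with the geometric mean of each stage as a line. In GJA4 and in both GJB6 panels every E14 point lies above every E5 point, whereas the GJA5 panel overlaps at all stages.

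GJA4 is the chick gene that RefSeq also lists as Cx39. Its signal was 36.6, 47.9 and 54.3 in the 3 CAMs at E5, 102, 40.8 and 110.4 at E7, 114, 134 and 213 at E10, and 254, 252 and 119.7 at E14. Every E10 and E14 CAM lay above every E5 and E7 CAM, and within a stage the signals spread by over 2-fold at E7 and at E14. The lowest E5 signal (36.6) lay just above 35, the limit for testing. The stage means were 46.3 ± 8.93, 84.4 ± 37.9, 154 ± 52.2 and 209 ± 76.9 (SD, n = 3 CAMs per stage), in the order of the stages.

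GJA4 rose at E14 against E5 (log2 fold change 2.11, SE 0.41, limma adjusted p = 0.00105) and at E10 against E5 (1.70, SE 0.41, adjusted p = 0.00988). It also rose at E14 against E7 (1.35, SE 0.41, adjusted p = 0.0277). None of the steps between neighbouring stages was called, since E7 against E5 gave 0.76 (adjusted p = 0.353), E10 against E7 0.94 (adjusted p = 0.201) and E14 against E10 0.41 (adjusted p = 0.611). The call of E10 against E5 was lost without E10 replicate 3 (adjusted p = 0.0564). The call of E14 against E7 was lost without E7 replicate 2 (0.12), E14 replicate 1 (0.0977) or E14 replicate 2 (0.0876), and with only the 6 arrays compared in the fit (0.08).

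GJA5, the connexin that mouse arterial endothelium shares with the conducting tissue of the heart, was called in no comparison. Its signal was 357, 383 and 650.2 at E5, 1122, 519 and 625 at E7, 1032, 419 and 1427 at E10, and 633, 518 and 498 at E14. Each stage overlapped with every other, and E10 held both the highest signal of the 12 CAMs (1427) and one close to the E5 level (419). The stage means were 464 ± 162, 755 ± 322, 959 ± 508 and 549.8 ± 72.7 (SD, n = 3 CAMs per stage), so that no stage stood apart from its neighbours beyond their spread.

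At E10 against E5 the log2 fold change was 0.93 (SE 0.39, 95% interval 0.10 to 1.76, adjusted p = 0.107), at E14 against E10 it was -0.64 (SE 0.39, adjusted p = 0.381), and at E14 against E5 it was 0.29 (SE 0.39, 95% interval -0.54 to 1.13, adjusted p = 0.575). The upper end of that last interval does not exclude a change of over 2-fold. One array decided the E10 result: without E10 replicate 2 GJA5 was called higher at E10 than at E5 (log2 fold change 1.44, adjusted p = 0.0116).

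The balance of GJA4 and GJA5, which are arterial in the mouse, was read within each CAM, as log2 GJA4 minus log2 GJA5. Only its change between stages has a meaning, and which vessels of the CAM carry either gene was not tested. The difference was -3.29, -3.00 and -3.58 at E5, -3.46, -3.67 and -2.50 at E7, -3.18, -1.65 and -2.75 at E10, and -1.32, -1.04 and -2.06 at E14. At E14 all 3 CAMs lay above those of E5 and E7, and they overlapped with those of E10. The mean was 1.82 higher at E14 than at E5 and 1.74 higher at E14 than at E7, each with a two-sided exact permutation p = 0.1, the smallest that 3 against 3 CAMs allow (0.3 after adjustment over the 6 comparisons of stages). In bulk membrane, fewer cells of a type and less RNA per cell cannot be told apart, here and in every result below.

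**Figure D2:**
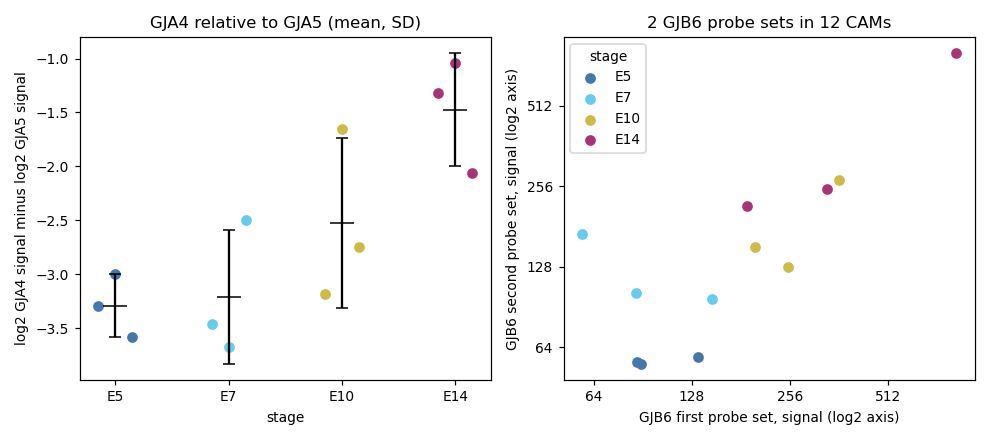
Left, log2 GJA4 signal minus log2 GJA5 signal in each CAM (points) at the 4 stages, with mean and SD (n = 3). The E14 points lie between -2.06 and -1.04, above all E5 and E7 points. Right, signal of the second GJB6 probe set against the first in the 12 CAMs on log2 axes, coloured by stage, with E14 replicate 2 at the top right (832 and 808).

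GJA1 (Cx43), the most widely expressed connexin of vertebrates, was read by a probe set of a type that can bind several related transcripts. Its signal was 841, 948 and 1061 at E5, 1204, 1202 and 857 at E7, 1885, 1669 and 1515 at E10, and 1532, 2203 and 1842 at E14. The 6 CAMs of E10 and E14 all lay above the 6 of E5 and E7. The stage means were 949.9 ± 110.1, 1088 ± 199.8, 1689.5 ± 186 and 1859 ± 336 (SD, n = 3 CAMs per stage).

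GJA1 passed the adjusted p but not the fold in each of the 3 longer comparisons. The log2 fold change was 0.96 at E14 against E5 (SE 0.20, limma adjusted p = 0.00184), 0.83 at E10 against E5 (SE 0.20, adjusted p = 0.0102) and 0.77 at E14 against E7 (SE 0.20, adjusted p = 0.0135). Of the steps, E10 against E7 was 0.65 (adjusted p = 0.0822), whereas E7 against E5 was 0.18 (adjusted p = 0.665) and E14 against E10 was 0.13 (adjusted p = 0.767). The E14 against E5 value lies close to the fold limit, and it was called after quantile normalization (log2 fold change 1.07), without E5 replicate 3 (1.04) and without E14 replicate 1 (1.09).

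GJB6, for which RefSeq also gives the name CX31, was read by 2 probe sets. In the first its signal was 87.2, 89.7 and 134 at E5, 86.3, 148 and 59 at E7, 253, 200.3 and 362 at E10, and 189, 832 and 333 at E14. In the second it was 56.3, 55.2 and 58.5 at E5, 102, 96.4 and 169 at E7, 127, 152 and 270.4 at E10, and 216, 808 and 250.1 at E14. Both placed every E10 and E14 CAM above every E5 CAM, and both gave E14 replicate 2 the highest signal. That CAM alone had a low HINTW signal at E14 (2.59, against 4679.8 and 4458 in replicates 1 and 3). At E5 replicate 3 alone had a high HINTW signal, and it had the highest GJB6 in both probe sets. In the second the lead was small (58.5, against 56.3 and 55.2). At E7 replicate 2 alone had a high HINTW signal (7633), with the highest GJB6 in the first probe set (148) and the lowest in the second (96.4). CAMs of high and low HINTW were not compared as groups for GJB6, and the fit with HINTW as a covariate is given at the end.

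GJB6 rose in both probe sets in each of the 3 longer comparisons. At E14 against E5 the log2 fold change was 1.88 in the first (SE 0.45, limma adjusted p = 0.00477) and 2.64 in the second (SE 0.43, adjusted p = 0.00028). At E14 against E7 it was 2.04 in the first (SE 0.45, adjusted p = 0.00595) and 1.57 in the second (SE 0.43, adjusted p = 0.0171). At E10 against E5 it was 1.37 in the first (SE 0.45, adjusted p = 0.0451) and 1.61 in the second (SE 0.43, adjusted p = 0.0164).

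At E7 the probe sets gave unlike values, and no step was called in either. The second gave 102, 96.4 and 169 at E7, all above its E5 signals, with a log2 fold change of 1.06 (unadjusted p = 0.0252, adjusted p = 0.227). The first gave overlapping signals and a log2 fold change of -0.16 (adjusted p = 0.888), and then 1.53 at E10 against E7 (adjusted p = 0.0716). The ratio of first to second was 1.55, 1.63 and 2.29 at E5, 0.848, 1.54 and 0.35 at E7, 1.99, 1.32 and 1.34 at E10, and 0.872, 1.03 and 1.33 at E14. The 0.35 belongs to E7 replicate 3, the array that stood apart, E7 replicate 2 lay at the E5 level, and the difference between the probe sets was not tested. Across the 12 arrays, which share their stages, their log2 signals had a Pearson r of 0.79, and 0.62 without E14 replicate 2.

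Single arrays decided some of the GJB6 calls but none at E14 against E5. The first probe set at E10 against E5 lost its call on leaving out any 1 of the 6 arrays compared (adjusted p 0.0557 to 0.17) and under several other settings. The second lost its call at E10 against E5 without E5 replicate 2 (0.0512) or E10 replicate 3 (0.0881), and at E14 against E7 without E7 replicate 1 (0.0534), E7 replicate 2 (0.0604) or E14 replicate 2 (0.0602), and with only the 6 arrays compared (0.0562). Without E14 replicate 2 the E14 against E5 change was 1.30 in the first probe set and 2.04 in the second, both still called.

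GJB1 (CX32), the liver and myelin connexin of mammals, had signals of 34.5 to 75.7, the lowest of them under the limit of 35 for testing. Its signal was 59.9, 75.7 and 74.8 at E5, 47.8, 51.1 and 66.5 at E7, 40.7, 34.5 and 49.6 at E10, and 62.9, 49.6 and 51.5 at E14. The E10 CAMs lay below the E5 CAMs without overlap, and the lowest E14 CAM lay at the level of the highest E10 CAM (both 49.6). At E10 against E5 the log2 fold change was -0.76 (SE 0.31, unadjusted p = 0.0282, adjusted p = 0.101), and at E14 against E5 it was -0.36 (SE 0.31, 95% interval -1.03 to 0.31, adjusted p = 0.383), so no comparison was called.

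GJC3, the gene with the older symbols GJC1 and GJA7, had a signal of 105, 79 and 118 at E5, 103, 68.9 and 126 at E7, 42.2, 60.7 and 107 at E10, and 33.9, 68.6 and 56.8 at E14. The E14 CAMs lay below all CAMs of E5 and of E7, by a narrow gap (68.6 at E14 against 68.9 at E7). The log2 fold change was -0.96 at E14 against E5 (SE 0.39, 95% interval -1.79 to -0.14, adjusted p = 0.0615) and -0.92 at E14 against E7 (SE 0.39, adjusted p = 0.103), so neither was called. At E14 against E5 GJC3 was called lower after quantile normalization (-1.11, adjusted p = 0.0293), with equal medians (-1.04, adjusted p = 0.0385) and without E14 replicate 2 (-1.18, adjusted p = 0.0431).

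GJA3, the lens fibre connexin, stayed below the limit in every CAM. Its signal was 9.8, 33.5 and 15 at E5, 9.56, 26.2 and 22.9 at E7, 15.2, 15.6 and 3.22 at E10, and 21.6, 23.3 and 21.2 at E14. The 3 E14 signals lay above the 3 E10 signals, and the other stages overlapped. The reported fit made no test at such signals, where scatter is large on a log scale. In the fit without a filter, which held all 8 connexin probe sets, GJA3 was called in no comparison.

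Counted over the family, 3 of 7 tested connexin probe sets were called higher at E14 against E5, where 14.8% of all 17726 were, 3 of 7 at E10 against E5 (9.36% of all) and 3 of 7 at E14 against E7 (9.02% of all). In each case they were GJA4 and both GJB6 probe sets, that is 2 genes, and GJA1 brought to 4 of 7 those with an adjusted p under 0.05. The genes were chosen with earlier results of these data known, so these counts describe the family and do not test it. At E7 against E5, E10 against E7 and E14 against E10, 0 of 7 were called higher, where 1.02%, 2.75% and 1.22% of all were. At an unadjusted p under 0.05, limma had 1, 3 and 1 connexin probe sets higher in these steps and 0 lower. No connexin was called lower in any of the 6 comparisons, in which 0 or 1 had an unadjusted p under 0.05 in that direction. Over all tested probe sets, 13.6% were called lower at E14 against E5, 6.61% at E14 against E7 and 4.78% at E10 against E5, and 0.243% to 1.48% in the steps, so that 0 of 7 is no result about the connexins.

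The median log2 fold change of the 7 connexin probe sets was 0.96 at E14 against E5, beside 0.03 over all tested probe sets. It was 0.93 at E10 against E5 (0.04 over all) and 0.77 at E14 against E7 (0.04 over all). For the steps it was 0.18 at E7 against E5 (-0.04 over all), 0.55 at E10 against E7 (0.06 over all) and 0.40 at E14 against E10 (-0.05 over all). GJB6 enters these medians with 2 probe sets, and comparisons that share a stage share its arrays. The medians, too, describe genes chosen with earlier results known.

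**Figure D3:**
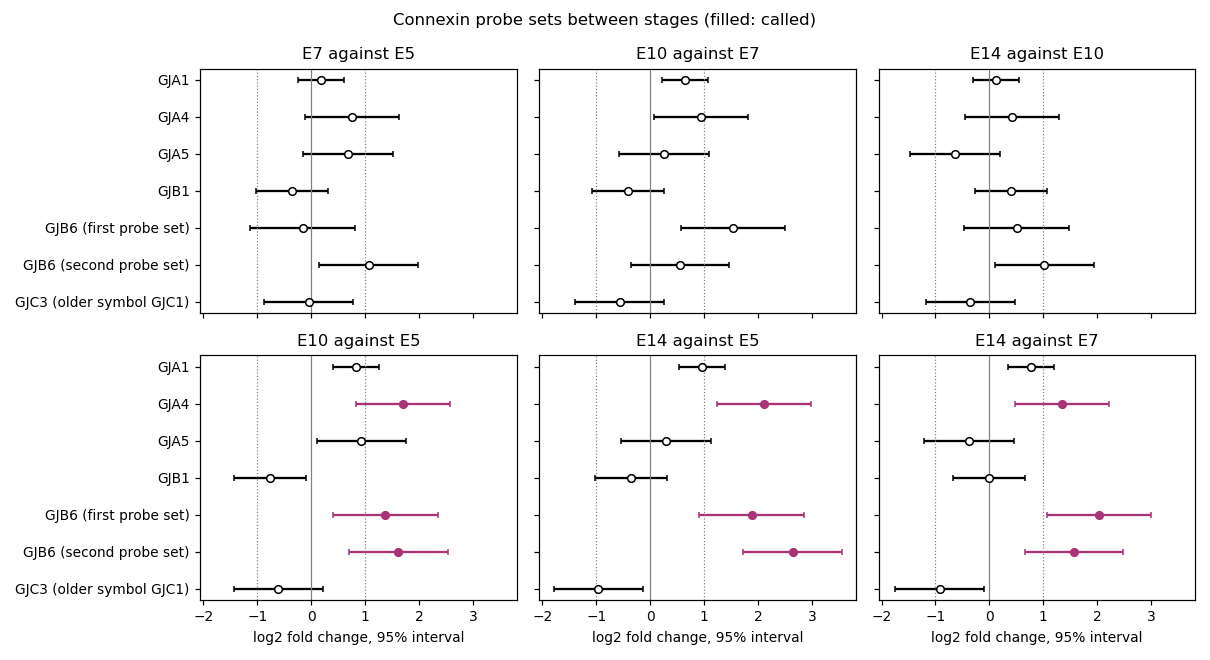
Log2 fold change of the 7 tested connexin probe sets in the 6 comparisons of stages (later against earlier), with 95% intervals from limma. Filled points are called, dotted lines mark a fold of 2, and the 9 filled points are GJA4 and both GJB6 probe sets at E10 against E5, E14 against E5 and E14 against E7.

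Beyond these genes, 15 other connexins and pannexins were listed, and 7 of them had an annotated probe set. Pannexins form membrane channels of a like shape that do not usually dock between cells. PANX2 and PANX3 were tested, and in the 1 probe set read per gene neither was called in any comparison. Another PANX2 probe set also passed the limit (signals of 19.6 to 117), and its comparisons are not given here. PANX2 had 109 ± 14.9 at E5, 98.5 ± 29.6 at E7, 104 ± 19.6 at E10 and 65.7 ± 23.8 at E14 (SD, n = 3), with a log2 fold change of -0.77 at E14 against E5 (adjusted p = 0.0676). PANX3 had 51.7 ± 10.6, 61.4 ± 62.8, 47.8 ± 5.98 and 98.1 ± 11.3 at the same stages (0.94, adjusted p = 0.162). GJD2, GJD3, GJD4, GJA10 and PANX1 passed a signal of 35 in single arrays but not in all 3 CAMs of a stage, and were not tested.

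Gap junctions form beside adherens junctions and bind scaffold proteins, and 19 of 25 listed partners, kinases and turnover genes were tested. Of these 5 rose, 2 fell and 12 were not called at E14 against E5, with a median of 0.40, where 14.8% of all tested probe sets were called higher and 13.6% lower. The epithelial cadherin CDH1 rose to 2274 ± 325 at E14, against 624 ± 77.8 at E5 (log2 fold change 1.86, SE 0.18, adjusted p = 5.87e-06). The tight junction scaffold TJP3 rose to 200.1 ± 43.7, against 57.6 ± 13.8 (1.80, SE 0.32, adjusted p = 0.000533). CAV1, the coat protein of caveolae, rose by 1.86 (SE 0.46, adjusted p = 0.00573). Its signals were low, with 13.5 to 25.8 at E5 and 38.9 to 90 at E14. The neural cadherin CDH2 fell to 32.7 ± 19.2, against 223 ± 16.9 (-3.03, SE 0.47, adjusted p = 0.000209).

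TJP1 (ZO-1), which binds the tail of GJA1 in mammals, had 301 ± 67.6 at E14 and 361 ± 74.4 at E5 (-0.27, adjusted p = 0.419). The fall of CDH2 lay after E10, since it had 179 ± 75.8 at E10 and was called lower at E14 against E10 (-2.61, SE 0.47, adjusted p = 0.00891). At E10 against E5 the partners that rose were CDH1 (1.43), CAV1 (1.77) and TJP3 (1.53), 3 of 19 beside 9.36% of all tested probe sets. In the steps E7 against E5 and E10 against E7, 0 of 19 were called. Of all tested probe sets 1.02% and 2.75% were called higher there, so 0 of 19 is no result about the partners. At E14 against E7 2 rose, CDH1 (1.33) and TJP3 (1.28), and 1 fell, CDH2 (-2.78). These 2 and 1 of 19 stand beside 9.02% called higher and 6.61% called lower over all, and the difference was not tested.

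Of 22 listed genes of arterial identity, flow response and connexin transcription, 16 were tested. At E7 against E5, where 1.02% of all tested probe sets were called higher, 3 of them rose. Of the 7 tested connexin probe sets 0 were called there, which at that share gives no order between these genes and the connexins. KLF2, a flow-responsive transcription factor of endothelium, rose to 574 ± 38.8 at E7, against 163 ± 70.1 at E5 (1.90, SE 0.32, adjusted p = 0.00848), HEY1, a target of Notch, to 265 ± 45.6, against 89 ± 8.71 (1.56, SE 0.29, adjusted p = 0.0138), and SOX17 to 1178 ± 74.6, against 487 ± 187 (1.34, SE 0.30, adjusted p = 0.039). At E14 against E5 5 rose (KLF2 2.56, HEY1 2.24, SOX7 1.61, NOTCH1 1.31 and FOXO1 1.15) and TBX20 fell (-2.27), to low signals of 5.71 to 21.3 at E14. That is 5 and 1 of 16 beside 14.8% and 13.6% of all, with a median of 0.73.

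EFNB2, the arterial ephrin, had 40.9 ± 17.6 at E14 and 39 ± 12.1 at E5 (0.03, SE 0.47, adjusted p = 0.971). At E10 against E7 SOX7, a transcription factor of endothelium, rose to 513 ± 51.7, against 224 ± 28.9 at E7 (adjusted p = 0.00537), and GATA4, a transcription factor of endoderm and heart, fell (-3.27, SE 0.63, adjusted p = 0.0093), to signals of 3.27 to 15.2 at E10. At E14 against E10, 0 of 16 were called by limma. Over all tested probe sets 1.22% were called higher and 1.48% lower there, so 0 of 16 is no result about these genes.

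Markers of the cell types that a CAM holds moved over the same stages. The summed signal of 11 endothelial markers, such as CDH5, KDR and VWF, was 2508 to 3321 at E5, 4789 to 6219 at E7, 5420.2 to 8134 at E10 and 6004 to 8108 at E14. Within stages the sum and GJA4 went together in part. Replicate 3 had the lowest sum and the lowest GJA4 (119.7) at E14. It had the highest of both at E10 (213 for GJA4) and at E5 (3321 and 54.3). E7 replicate 3, the array that stood apart, had the lowest sum of its stage (4789) and the highest GJA4 (110.4). Of the other E7 arrays, replicate 1 was the higher in both (6219 and 102, against 4872 and 40.8). At E5 replicate 1 had a slightly higher sum than replicate 2 (2545 against 2508) but a lower GJA4 (36.6 against 47.9). GJA5, called in no comparison, was likewise highest in the CAM with the highest sum at every stage (650.2, 1122, 1427 and 633). Its other CAMs followed the order of the sum at E14 alone. The sum is led by bright genes such as CDH5, VWF and EGFL7 (means 2110.3, 1291 and 1224 at E14). The match was not particular to these connexins or this list. E10 replicate 3 also had the highest GJB1, GJC3 and GJB6 (both probe sets) of its stage, but the lowest GJA1. E5 replicate 3 also had the highest GJA1, GJC3 and GJB6 (both probe sets). The CAM with the highest sum of 4 lymphatic markers (597, 1385, 1977 and 2193 over the stages) had the highest GJA4 at every stage. Why either connexin went with a marker sum was not tested. Of the 11 markers 8 rose and 0 fell at E14 against E5, and 6 and 0 at E10 against E5, where 14.8% and 9.36% of all tested probe sets were called higher. PECAM1 (0.29), FLT1 (0.50) and ESAM (1.03) were not called at E14 against E5. At E14 against E7 1 rose and 0 fell, near the 9.02% of all, which is no result about these markers.

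The summed signal of 15 epithelial markers was 7476 to 11328 at E5, 10252 to 14335 at E7, 14159.7 to 15515 at E10 and 24814 to 28435 at E14. Of these markers 12 rose and 1 fell at E14 against E5, where 14.8% of all tested probe sets were called higher and 13.6% lower. At E14 against E7 10 rose and 1 fell (9.02% and 6.61% of all). Among those that rose were KRT14 (4.39 and 3.31), COL17A1 (3.58 and 3.40) and CLDN3 (2.31 and 2.61), all genes of epithelial sheets. The marker that fell was GRHL3 (-1.32 and -1.50), and KRT7 and CLDN4 were called in neither comparison. E14 replicate 2 had the highest GJB6 in both probe sets and the only low HINTW signal of E14. It also had the lowest epithelial sum of its stage (24814). That sum is led by its brightest genes, EPCAM, KRT7 and KRT14 (means 6553, 6489 and 5068 at E14). A single CAM and such a sum cannot show which cells carry GJB6. The sum of 8 mural markers (smooth muscle and pericytes) was 1496 to 2290.0 at E5, 3640.3 to 8042 at E7, 4422 to 5938 at E10 and 4282 to 11918 at E14. That of 10 leukocyte markers was 414 to 556 at E5, 885 to 1092 at E7, 1304 to 1597 at E10 and 4509 to 6417 at E14. At E14 against E5, 7 of the 8 mural and 9 of the 10 leukocyte markers rose and 0 fell. The part of these cell types in the connexin changes was not tested.

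**Figure D4:**
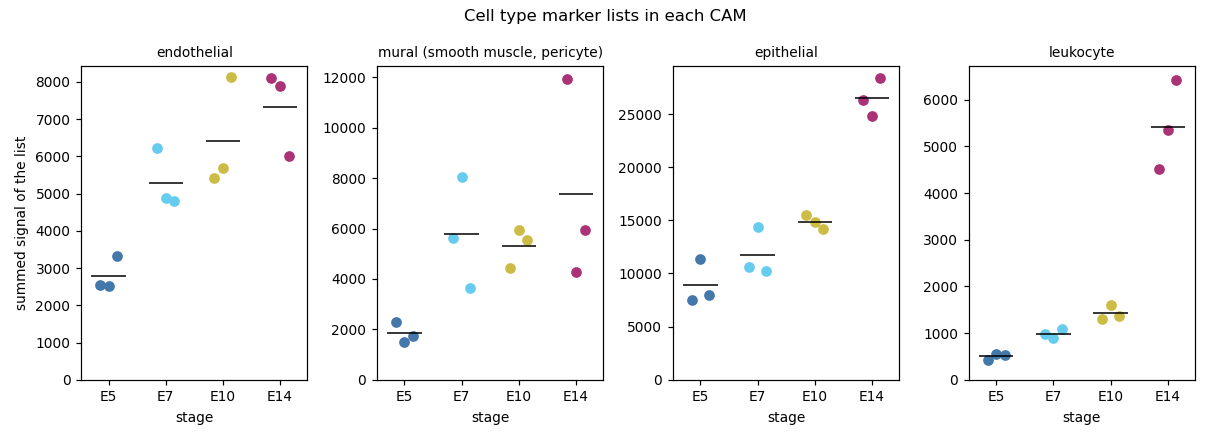
Summed signal of the tested markers of 4 cell types in each CAM (points, 3 per stage, replicates 1 to 3 left to right) with the stage mean as a line, on axes from 0. Epithelial and leukocyte sums at E14 lie above those of all earlier CAMs, whereas endothelial sums at E14 (6004 to 8108) overlap with those at E10 (5420.2 to 8134).

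Among the connexins themselves, log2 signals over the 12 arrays, which share stage and array scaling, correlated most between GJA1 and the first GJB6 probe set (Pearson r = 0.90) and between GJA4 and the second GJB6 probe set (0.87). GJA1 and GJA4 had 0.72, whereas GJA4 and GJA5 had 0.44. GJB1 and GJC3 ran against GJA1 (-0.66 and -0.65). These values describe the arrays and carry no test, since a shared trend over the stages alone gives a high value.

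The genes most like each connexin over the 12 arrays were then listed by Pearson r of log2 signals among all tested probe sets with 1 symbol. For GJA1 they were SPINT1, an epithelial protease inhibitor (0.981), MAP1LC3A, an autophagy protein (0.957), and GSTT1L (0.953). SPINT1 had a mean signal of 101 at E5, 129 at E7, 260.5 at E10 and 377 at E14. For the first GJB6 probe set they were AFTPH (0.968), LRRC1 (0.961) and DSP, the desmosome protein desmoplakin (0.959), in a probe set with 248, 270.3, 483 and 809 over the stages.

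For GJA4 the most alike were SIDT2 (0.948), MOG (0.946) and USP48 (0.945). For GJA5 the values were lower, with ADORA2A, an adenosine receptor (0.820), WFDC1 (0.815) and RFTN1 (0.797), and ADORA2A likewise had its higher mean signals in the middle stages, with 69.5 at E5, 121 at E7, 116 at E10 and 67.4 at E14. For GJB1 they were CA9, a carbonic anhydrase (0.910), HOXD11 (0.878) and WNT5A (0.876), which all had their highest mean signal at E5. For GJC3 they were MYO9B (0.942), RPGRIP1L (0.925) and ESCO2, a cohesin acetyltransferase of dividing cells (0.893).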

How the data were processed

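Whole CAMs were profiled on 12 Affymetrix chicken arrays, with 4 stages of 3 embryos. The authors deposited 1 intensity value per probe set and array, a signal from GCOS 1.2 scaled over the array to a target of 100, not logged and without detection calls, so the present calls of the study's filter could not be used. Of 38535 probe sets 96 are controls, and of the other 38439, 27168 carry 1 gene symbol, 177 several and 11094 none. Signals were taken to log2 and fitted with limma 3.58.1 in R 4.3.3 (a mean per stage, eBayes with an intensity trend, Benjamini-Hochberg adjustment over 17726 probe sets with a signal of at least 35 in all 3 arrays of a stage). The study tested with SAM and a rank statistic, and its limits (more than 2-fold, FDR below 5%) were kept here. Python 3.11.15 with matplotlib 3.10.9 drew the figures.

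Named were every connexin probe set, the 3 genes most like each connexin by Pearson r (for GJB6 by the probe set with the higher mean), and called members of 3 pathway and 8 cell type lists, 1 probe set per gene, with a few uncalled ones (TJP1, EFNB2) chosen after their values were seen. The lymphatic, mesenchymal, erythroid and thrombocyte lists had 2 of 4, 2 of 10, 3 of 7 and 1 of 2 tested members called higher at E14 against E5, and the mesenchymal and erythroid lists 1 each called lower. Over all tested probe sets 14.8% were called higher and 13.6% lower there. The mesenchymal counts lie near these shares and are no result about that cell type, and the other differences were not tested. Members and lists were chosen with earlier results of these data known. On simulated data limma found 63 of 100 probe sets changed 3-fold and 84 of 100 changed 6-fold at E7 against E5 among 17726, with 8 false calls among 155. The median SE was 0.329 in that comparison, and 21.1% of tested probe sets had a signal under 20. The number of arrays limits the precision. Sequences of the probes were not used here.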

Additional observations from a re-analysis of the deposited data

How the results depend on the processing

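The number of connexin probe sets called was recomputed for each comparison without a filter, with a stricter filter, with an offset or floor for low signals, with other normalizations and variance settings, with the replicate block, with a rank form of the test and with single arrays left out; leaving out E7 replicate 3 where E7 was not compared and the log2 HINTW signal as a covariate were added after seeing the data. GJA4 and both GJB6 probe sets kept their E14 against E5 call in all of these. After quantile normalization 5 probe sets were called at E14 against E5, GJA1 and GJC3 among them, against 3 in the fit reported. With only the 6 arrays compared, 1 was called at E14 against E7 (the first GJB6 probe set). The rank form, complete separation with a fold over 2 and no adjustment, gave 1 at E7 against E5 (the second GJB6 probe set) and 1 at E10 against E7 (the first). Leaving out single arrays gave 0 to 3 calls at E10 against E5 (0 without E10 replicate 3, 1 without E5 replicate 2), 3 to 4 at E14 against E5 and 1 to 3 at E14 against E7 (1 without E7 replicate 2 or E14 replicate 2), and 0 between neighbouring stages. The first GJB6 probe set also lost its E10 against E5 call without a filter (adjusted p = 0.0553), after quantile normalization (0.0727), with equal medians (0.0664), without the intensity trend (0.0793) and with HINTW as a covariate (0.0774). The cause of these shifts was not tested.

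Changes that turned direction were all uncalled. Leaving out single arrays gave log2 fold changes of -0.003 to 0.259 for GJA1 and -0.073 to 0.998 for the first GJB6 probe set at E14 against E10, -0.119 to 0.765 for GJA5 at E10 against E7, -0.111 to 0.137 for GJB1 at E14 against E7, -0.509 to 0.156 for the first GJB6 probe set at E7 against E5, and -0.237 to 0.196 at E7 against E5 and -0.661 to 0.008 at E14 against E10 for GJC3. With HINTW as a covariate GJC3 gave 0.015 at E7 against E5. The replicate numbers did not pair the arrays (18 same-number pairs with r of -0.140 to 0.0712), and the replicate block left the counts at 0, 0 and 0 between neighbouring stages and 3, 3 and 3 for the longer comparisons. Scaling moved the balance over all probe sets. At E14 against E5 it turned, with 2617 higher and 2418 lower as reported, 2327 and 2625 after quantile normalization and 2375 and 2744 with equal medians. It also went from 1660 higher and 848 lower at E10 against E5 to 1338 and 1160 with equal medians, and from 487 and 119 at E10 against E7 to 402 and 198 after quantile normalization.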
